A study of Homo sapiens with 4 samples.

Results

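The genes described here are 56 ribosome biogenesis and nucleolar factors, which comprise the proteins of small nucleolar ribonucleoproteins (snoRNPs), abundant nucleolar phosphoproteins, and the factors that process pre-ribosomal RNA (pre-rRNA) and assemble the small (40S) and large (60S) ribosomal subunits. They were chosen by symbol from a fixed list of names, and 55 of them were found among the 18806 genes of the deposited table, while WDR46 was not analysed here. The libraries came from Huh7, an established human hepatocellular carcinoma line, grown from 1 Cas9-expressing clone, and were profiled by RNA-seq. The cells carried either a lentiviral non-targeting guide (sgNS, genotype label WT, 2 libraries) or a lentiviral guide against METTL16 (METTL16 KO, genotype label METTL16 knockdown, 2 libraries), and the cells of all 4 libraries were selected with hygromycin B. The captions of the RNA-seq panels and the labels do not say whether the 2 METTL16 KO libraries carried the same guide. An effect of a guide and an effect of METTL16 loss therefore cannot be told apart in these libraries. The replicates are called biological, but the sources used here do not say whether they were transduced separately, and p-values then measure only the spread between these libraries.

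Ribosome production starts in the nucleolus, where RNA polymerase I transcribes a long pre-rRNA. Box C/D and box H/ACA snoRNPs modify this RNA, the small subunit (SSU) processome folds and cuts its 18S part, RNA helicases of the DEAD-box family remodel it, and separate sets of assembly factors carry the pre-40S and pre-60S particles towards the cytoplasm. Many of the genes are known targets of MYC, and their output is high in proliferating and tumor cells. The study places METTL16 protein in the granular component of the nucleolus, marked by NPM1, next to DDX47, DDX49 and BOP1. It also reports that METTL16 KO let early pre-rRNAs build up, lowered later intermediates and reduced the number of nucleoli. Its gene set analysis of the Huh7 RNA-seq found MYC targets and translation-related pathways suppressed in METTL16 KO. Those gene sets are not the list described here. This raises the question of how the transcripts of the nucleolar machinery stand in METTL16 KO cells.

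Values are TPM (transcripts per 1000000), a measure of relative abundance, which is scaled to gene length and to a fixed library total, so that levels can be compared between genes. These values keep no read counts, and the depth of each library is unknown. Each gene was tested with limma on log2(TPM + 0.1) among 11971 genes whose mean reached 1 TPM, a filter that all 55 genes passed, and a gene was called at a Benjamini-Hochberg adjusted p under 0.05 over all genes tested. Fold changes are METTL16 KO minus sgNS on that log2 scale, which understates changes of low values. Permuting 2 libraries against 2 exactly, two-sided, cannot give a p below 0.333 for any gene. The median gene had a log2 fold change of 0.16, and each call was therefore repeated after median-ratio scaling and after quantile normalization of the libraries, which brought that median to -0.0016 and 0.0097 and which, with the deposited values, are the 3 scales referred to here. METTL16 was at 26.3 and 25.1 TPM in the sgNS pair and at 17.6 and 18.8 TPM upon METTL16 KO. The log2 fold change was -0.50 (SE 0.062, adjusted p of 2.4e-05 from limma), and both KO libraries lay below both sgNS libraries. A cut by Cas9 need not lower the transcript of a gene, and this level checks the labels only in part. Of 11 hepatocyte and hepatoma markers 9 (81.8%) were called higher and 2 (APOA2 and APOB, 18.2%) lower. Over all genes tested these shares were 50.1% and 25.6%. ALB was at 7437 and 7537 TPM in sgNS against 10079 and 9882 TPM, AFP at 1737 and 1793 TPM against 10387 and 10197 TPM, and APOA2 at 12410 and 12347 TPM against 3277 and 3375 TPM. The leukocyte markers PTPRC and CD3E, the endothelial markers VWF, KDR, CDH5 and TIE1 and the stromal markers DCN and LUM all stayed at or below 0.71 TPM, with KDR and TIE1 at 0. The summed level was 29446 and 29514 TPM in sgNS and 35381 and 35029 TPM in METTL16 KO for the hepatocyte and hepatoma markers. It was 5.15 and 4.76 against 3.13 and 2.73 TPM for 5 endothelial markers and 3.65 and 3.34 against 4.54 and 4.20 TPM for 6 fibroblast and stellate markers. LYZ, listed as a leukocyte marker, was at 1510 and 1553 TPM in the sgNS pair and at 909 and 924 TPM upon METTL16 KO, while CD68 went from 3.40 and 2.72 TPM to 8.86 and 8.57 TPM and CD14 from 1.21 and 0.91 TPM to 1.61 and 1.66 TPM. The part of these shifts in the results was not tested, and in bulk RNA a smaller share of cells that express a gene cannot be told apart from less of its RNA per cell.

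Most of the ribosome biogenesis factors were more abundant in METTL16 KO. At the adjusted p threshold 39 of the 55 were higher, 6 were lower and 10 were not called, against 50.1% of all genes tested that were higher and 25.6% that were lower. The members called higher were thus 70.9% of the list and those called lower 10.9%. After median-ratio scaling 28 were higher and 13 lower, against 36.4% and 36.5% of all genes, and after quantile normalization 29 were higher and 13 lower, against 36.9% and 35.5%. The same 28 genes were called higher on all 3 scales and the same 6 lower, namely GNL2, NAT10, NPM1, NOLC1, NOP56 and FBL. The share of all genes called on all 3 scales was not counted here. The calls of 8 genes were lost in limma when 1 library was left out. These were NOP56, NOP58 and DDX54 (without the first KO library), FBL and RRP1 (without the second), NOLC1 and HEATR1 (without either), and NHP2 (without either, or without the second sgNS library). The median log2 fold change of the 55 genes was 0.30 as deposited, 0.14 after median-ratio scaling and 0.18 after quantile normalization.

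The changes were mostly moderate. When an unadjusted p under 0.01 was asked for together with a log2 fold change of 1 or more in size, only DDX51 was higher and 0 genes of the list were lower in limma, against 7.69% and 3.75% of all genes tested. At an unadjusted p under 0.05 alone, 39 were higher and 7 lower in limma, against 51.1% and 26.2% of all genes, and 28 were higher and 5 lower in a linear model without moderation, against 41.6% and 20.9%. With adjustment, 25 were higher and 5 lower in the model without moderation, against 33.8% and 16.3% of all genes. The 2 groups did not overlap for 54 of the 55 genes, the exception being RRP9, but this was so for 87.4% of all genes tested. Levels in sgNS ran from a mean of 4.53 TPM for DDX51 to 1885 TPM for NPM1, with a median of 45.7 TPM over the list against 22.8 TPM over all genes tested.

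**Figure D1:**
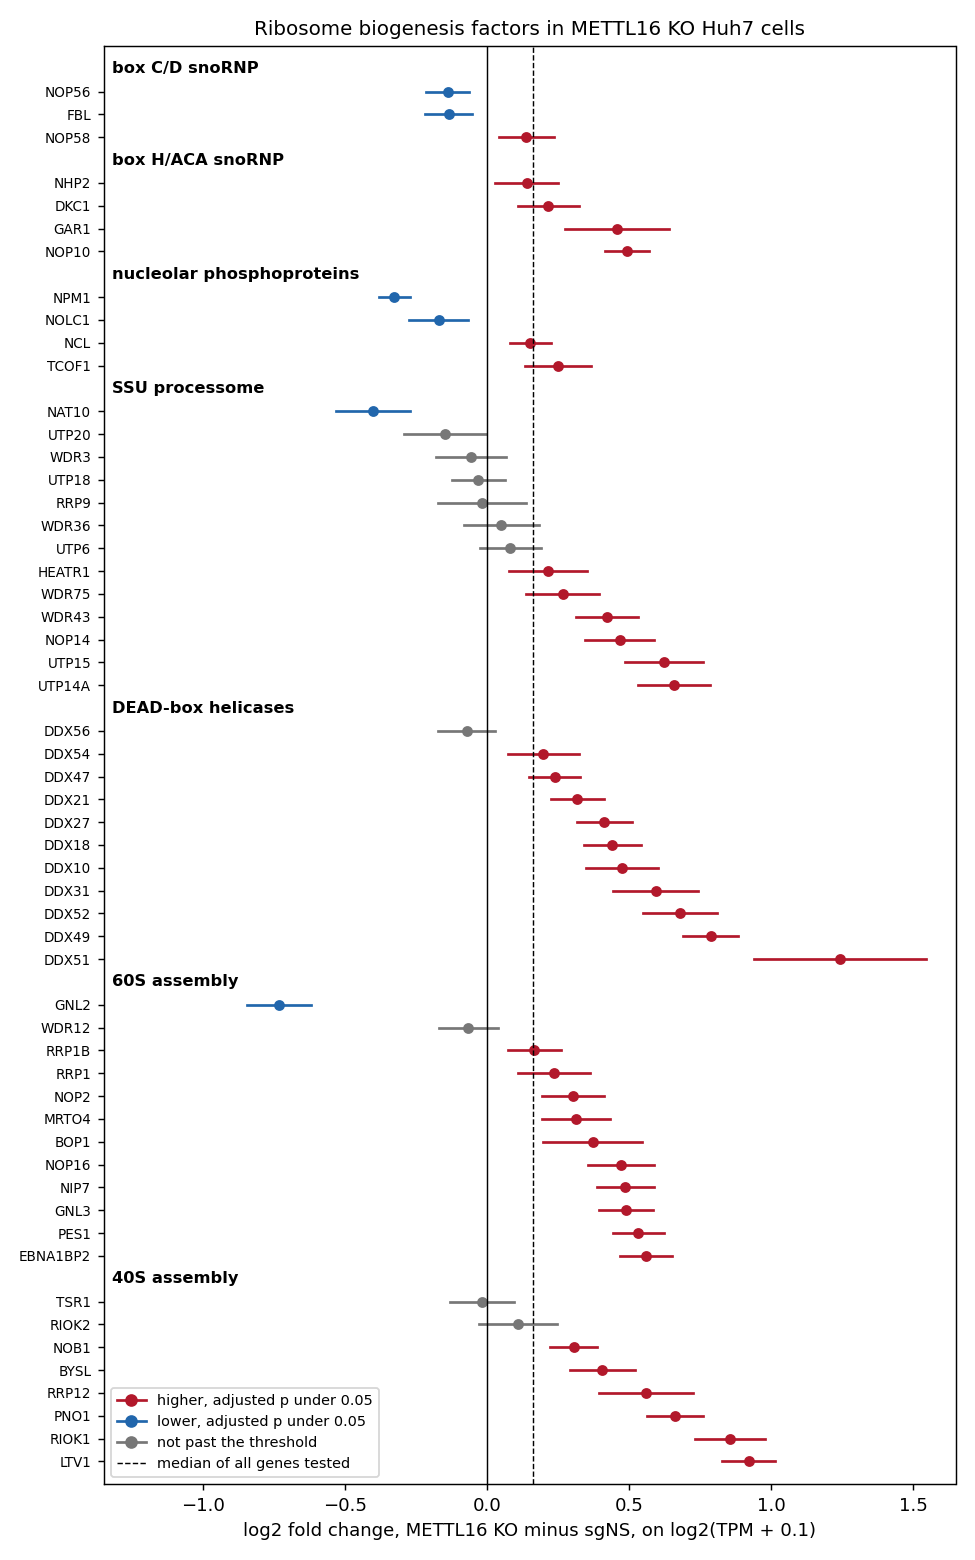
Log2 fold change (METTL16 KO minus sgNS, on log2(TPM + 0.1), horizontal axis) of each of the 55 genes, grouped by role, with 95% confidence intervals from limma; the dashed line marks the median of all genes tested at 0.16. The genes in red (39) were called higher and those in blue (6) lower as deposited, and the lowest and highest points are GNL2 at -0.73 and DDX51 at 1.24.

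The transcripts of snoRNP proteins went different ways. Box C/D snoRNPs add methyl groups to the ribose of rRNA, with FBL as the methyltransferase and NOP56 and NOP58 as core proteins. FBL, the protein the study uses to mark the dense fibrillar component, was at 231 and 227 TPM in the sgNS pair and at 215 and 203 TPM upon METTL16 KO. NOP56 was at 228 and 223 TPM against 203 and 206 TPM. Both were slightly lower, without overlap, with log2 fold changes of -0.14 (SE 0.037) and -0.14 (SE 0.034) and limma adjusted p-values of 0.0064 and 0.0030. Without the second KO library, however, FBL was at -0.096 with an adjusted p of 0.12 in limma, and without the first KO library NOP56 had an adjusted p of 0.051. NOP58 was called higher as deposited, with a log2 fold change of 0.14 (limma, adjusted p of 0.014), but it was at -0.027 after median-ratio scaling and at 0.00053 after quantile normalization, and it was not called on either of those scales, nor at 0.088 without the first KO library.

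Box H/ACA snoRNPs convert uridines of rRNA to pseudouridine, and DKC1 is their catalytic subunit, which works with NHP2, NOP10 and GAR1. NOP10, the smallest core protein, was at 177 and 178 TPM in the sgNS pair and at 245 and 255 TPM upon METTL16 KO. GAR1 went from 27.8 and 34.4 TPM to 42.7 and 42.3 TPM. These 2 genes were higher on all scales, with log2 fold changes of 0.49 (SE 0.035) and 0.46 (SE 0.083) and limma adjusted p-values of 3.1e-07 and 0.00043. The size for GAR1 depended on the sgNS library used, with 0.30 without the first and 0.61 without the second, and GAR1 was not called in a linear model without moderation (adjusted p of 0.13). DKC1 and NHP2 were called higher only as deposited, with log2 fold changes of 0.22 and 0.14, and NHP2 was at -0.026 after median-ratio scaling and at 0.071, not called, without the second sgNS library. The transcripts of the 4 proteins, which assemble together, were not equally abundant: in sgNS NOP10 was the most abundant, followed by NHP2 at 126 and 115 TPM, DKC1 at 62.0 and 57.4 TPM, and GAR1.

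A ratio of TPM within a library does not depend on how the libraries are scaled by a single factor. The ratios given here were chosen after values had been seen and were not tested. The summed TPM of the 4 box H/ACA proteins was 0.714 and 0.710 times that of the 3 listed box C/D proteins in sgNS, and 0.930 and 0.994 times in METTL16 KO. With SNU13, a further box C/D core protein that is not on the list, the ratios were 0.539 and 0.527 against 0.683 and 0.723. The balance between the 2 kinds of snoRNP protein transcripts was thus shifted towards box H/ACA in both KO libraries.

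Among the nucleolar phosphoproteins, NPM1 stood out by its abundance. NPM1 forms the granular component and was at 1870 and 1901 TPM in the sgNS pair and at 1509 and 1498 TPM upon METTL16 KO. It fell by 0.33 on the log2 scale (SE 0.025, adjusted p of 5.0e-07 from limma), by 0.49 after median-ratio scaling and by 0.19 after quantile normalization. GENCODE annotates 49 pseudogenes named after NPM1, so that reads may be shared with them. NCL, nucleolin, which binds pre-rRNA, was at 513 and 492 TPM in the sgNS pair and at 567 and 550 TPM upon METTL16 KO, but its direction depended on scaling, with log2 fold changes of 0.15 as deposited, -0.013 after median-ratio scaling and 0.071 after quantile normalization. NPM1 was 3.64 and 3.86 times as abundant as NCL in sgNS and 2.66 and 2.72 times in METTL16 KO. NOLC1, a phosphoprotein that binds snoRNPs, was at 62.5 and 58.9 TPM against 54.3 and 53.5 TPM and was lower on all scales, with a log2 fold change of -0.17 (limma, adjusted p of 0.0069). It was not called without the first or the second KO library, where its adjusted p from limma was 0.050 and 0.075. TCOF1, which supports pre-rRNA transcription, had a log2 fold change of 0.25 as deposited and 0.086, not called, after median-ratio scaling.

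**Figure D2:**
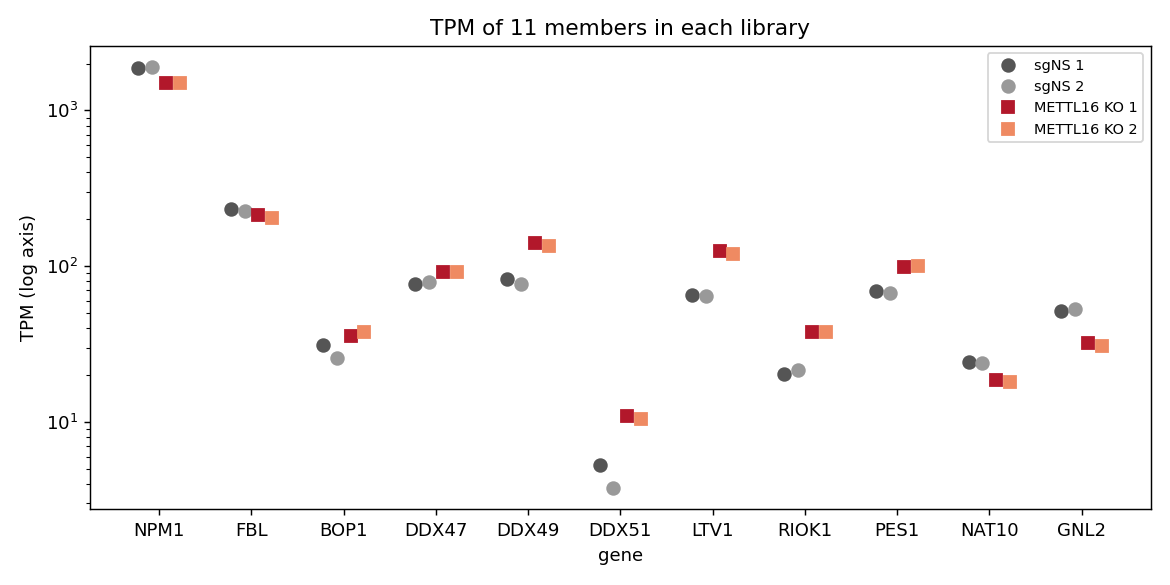
TPM (vertical log axis) of 11 genes in each of the 4 libraries, with circles for sgNS and squares for METTL16 KO. NPM1, FBL, NAT10 and GNL2 were lower in both KO libraries, and BOP1, DDX47, DDX49, DDX51, LTV1, RIOK1 and PES1 were higher in both as deposited.

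The SSU processome is the large particle that forms on the nascent pre-rRNA. Of its 13 genes tested, 6 were called higher, 1 lower and 6 were not called, and 4 were higher on all scales. As deposited these were 46.2% higher and 7.69% lower, against 50.1% and 25.6% of all genes tested, so the share called higher was below that of all genes. Its t-UTP subcomplex, which also takes part in pre-rRNA transcription, is represented on the list by UTP15, WDR43, WDR75 and HEATR1. UTP15 was at 13.2 and 13.2 TPM in the sgNS pair and at 20.3 and 20.4 TPM upon METTL16 KO, which is a log2 fold change of 0.62 (SE 0.062, adjusted p of 4.6e-06 from limma). WDR43 went from 47.7 and 49.6 TPM to 67.2 and 63.2 TPM, with a log2 fold change of 0.42 (SE 0.049). These 2 genes were higher on all scales. WDR75 and HEATR1 had log2 fold changes of 0.27 and 0.21 as deposited, and of 0.10 and 0.050, not called, after median-ratio scaling. UTP4 and NOL11, which belong to the same subcomplex but to the list of other factors, had 0.38 and 0.34 and were called higher on all scales.

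The UTP-B subcomplex, a scaffold that binds pre-rRNA next to the U3 snoRNP, is represented on the list by 4 of its subunits. Of these, 0 were called as deposited, against 50.1% of all genes tested that were higher and 25.6% that were lower. At an unadjusted p of 0.05, 0 of them passed in limma or in a linear model without moderation. UTP18 was at 75.7 and 77.9 TPM in the sgNS pair and at 75.1 and 75.3 TPM upon METTL16 KO, with a 95% interval of its log2 fold change from -0.12 to 0.061. The intervals were -0.18 to 0.067 for WDR3, -0.082 to 0.18 for WDR36 and -0.026 to 0.19 for UTP6. After median-ratio scaling UTP18 was at -0.20 and WDR3 at -0.22, both called lower, while UTP6 and WDR36 were at -0.084 and -0.12 and were not called. The other UTP-B subunits, PWP2 and TBL3, are among the other factors and were called higher as deposited, with log2 fold changes of 0.26 and 0.27 and limma adjusted p-values of 0.0070 and 0.0097, but not after median-ratio scaling, where they were at 0.092 and 0.11. With these partners included, the summed TPM of 6 t-UTP subunits was 1.13 and 1.19 times that of 6 UTP-B subunits in sgNS and 1.44 and 1.43 times in METTL16 KO.

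Other factors of the processome lay at both ends. UTP14A, which activates the helicase DHX37, was the highest, with 17.7 and 17.5 TPM in sgNS and 28.1 and 27.4 TPM in METTL16 KO. The log2 fold change was 0.66 (SE 0.057, adjusted p of 1.5e-06 from limma). NOP14 had a log2 fold change of 0.47 and was also higher on all scales. NAT10, the acetyltransferase that modifies cytidines of 18S rRNA, was the lowest, with 24.4 and 23.9 TPM in sgNS and 18.51 and 18.02 TPM in METTL16 KO. It fell by 0.40 (SE 0.058, adjusted p of 8.3e-05 from limma), and by 0.57 and 0.59 on the other scales. UTP20, a large scaffold protein, was at -0.15 on the log2 scale, with an adjusted p of 0.060 in limma. RRP9, a protein of the U3 snoRNP, was at 27.95 and 24.69 TPM in the sgNS pair and at 26.9 and 25.0 TPM upon METTL16 KO. The groups overlap, and its log2 fold change of -0.018 turned to 0.071 without the first sgNS library and to 0.035 without the second KO library.

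The DEAD-box helicases were nearly all higher as deposited. These enzymes use ATP to open RNA duplexes and to release snoRNAs and proteins from pre-ribosomes. Of 11 genes, 10 (90.9%) were called higher, against 50.1% of all genes tested, and 8 of them on all scales, with a median log2 fold change of 0.44. DDX51, which acts on the pre-60S particle, was at 5.29 and 3.76 TPM in the sgNS pair and at 10.9 and 10.5 TPM upon METTL16 KO. Its log2 fold change of 1.24 was the highest of the list (SE 0.14, adjusted p of 1.0e-05 from limma), but the 2 sgNS libraries differ by much more than the 2 KO libraries, and in a linear model without moderation its adjusted p was 0.064. DDX52 followed a similar course at a higher level, from 15.5 and 15.8 TPM to 25.3 and 24.9 TPM, with a log2 fold change of 0.68 (SE 0.059). The log2 fold changes of DDX31, DDX10, DDX18, DDX27 and DDX21 lay between 0.59 and 0.32, and these genes were higher on all scales. DDX54 had 0.20 as deposited and 0.034, not called, after median-ratio scaling. DDX56, the only helicase below 0 as deposited, was at 49.2 and 48.8 TPM against 46.4 and 46.9 TPM, with a log2 fold change of -0.071 that was not called (95% interval -0.17 to 0.029) but was called lower at -0.24 after median-ratio scaling.

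DDX47 and DDX49 are the helicases that the study finds next to METTL16 protein. DDX49, on the plus strand of chromosome 19 from 18919705 to 18929189 (GRCh38), was at 82.5 and 77.5 TPM in the sgNS pair and at 140.9 and 135.3 TPM upon METTL16 KO. The log2 fold change was 0.79 (SE 0.044, adjusted p of 5.2e-08 from limma), and it was 0.62 and 0.67 after median-ratio scaling and quantile normalization. DDX47, on the plus strand of chromosome 12 from 12813316 to 12829981, was at 76.9 and 78.7 TPM in the sgNS pair and at 91.6 and 91.9 TPM upon METTL16 KO. Its log2 fold change of 0.24 (SE 0.040, adjusted p of 2.6e-04 from limma) was 0.072 after median-ratio scaling and 0.094 after quantile normalization, with limma adjusted p-values of 0.13 and 0.056. The 2 genes thus started from nearly the same level in sgNS, and only DDX49 was called higher whatever the scaling. Exons of DDX47 overlap those of APOLD1 on the same strand, so that some reads could belong to either gene.

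Factors of the 60S subunit were mostly higher, with 10 of 12 called higher, 1 lower and 1 not called, and 8 were higher on all scales. These were 83.3% higher and 8.33% lower as deposited, against 50.1% and 25.6% of all genes tested. PES1, BOP1 and WDR12 form the PeBoW complex, which is needed to process the internal spacer of the large subunit rRNA. PES1 was at 69.2 and 67.6 TPM in the sgNS pair and at 98.4 and 99.6 TPM upon METTL16 KO, which is a log2 fold change of 0.53 (SE 0.040, adjusted p of 5.2e-07 from limma). BOP1, the third nucleolar partner of METTL16 in the study, lies on the minus strand of chromosome 8 from 144262045 to 144291438 and went from 31.0 and 25.8 TPM to 35.6 and 37.6 TPM. The log2 fold change was 0.37 (SE 0.079, adjusted p of 0.0013 from limma), and it stayed called at 0.21 and 0.21 on the other scales, with limma adjusted p-values of 0.034 and 0.042. It was 0.51 without the first sgNS library and 0.24 without the second, and BOP1 was not called in a linear model without moderation (adjusted p of 0.15). WDR12 was at 43.5 and 44.4 TPM in the sgNS pair and at 42.4 and 41.5 TPM upon METTL16 KO, with a log2 fold change of -0.066 that was not called (95% interval -0.17 to 0.039) and -0.23, called lower, after median-ratio scaling. The ratio of PES1 to WDR12 was 1.59 and 1.52 in sgNS and 2.32 and 2.40 in METTL16 KO, and that of BOP1 to WDR12 was 0.713 and 0.580 against 0.840 and 0.906. The transcripts of the 3 PeBoW proteins were thus not changed in parallel.

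The nucleolar GTPases GNL2 and GNL3 went in opposite directions. GNL2, which is needed for the export of pre-60S particles, lies on the minus strand of chromosome 1 from 37566816 to 37595937 and was at 51.3 and 53.2 TPM in the sgNS pair but at 32.2 and 30.6 TPM upon METTL16 KO. It fell by 0.73 (SE 0.051, adjusted p of 2.8e-07 from limma), and by 0.90 and 0.88 on the other scales, the lowest value of the list on each of the 3 scales. GNL3, nucleostemin, which is abundant in stem and tumor cells, rose from 57.7 and 57.4 TPM to 82.3 and 79.3 TPM, a log2 fold change of 0.49 (SE 0.043). The ratio of GNL3 to GNL2 was 1.12 and 1.08 in sgNS and 2.55 and 2.59 in METTL16 KO, so that the groups were far apart by any scaling with a single factor.

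Among the other 60S factors EBNA1BP2 was the highest, with 66.9 and 65.0 TPM in sgNS and 97.5 and 96.9 TPM in METTL16 KO and a log2 fold change of 0.56 (SE 0.041). NIP7, NOP16, MRTO4 (which holds the place of the stalk protein P0) and NOP2 (a methyltransferase of 28S rRNA) had log2 fold changes of 0.49, 0.47, 0.31 and 0.30 and were higher on all scales. RRP1 and its paralog RRP1B had 0.23 and 0.17 as deposited and were not called on the other scales. Their ratio did not separate the groups, with RRP1B at 1.78 and 1.90 times RRP1 in sgNS and at 1.81 and 1.70 times in METTL16 KO.

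**Figure D3:**
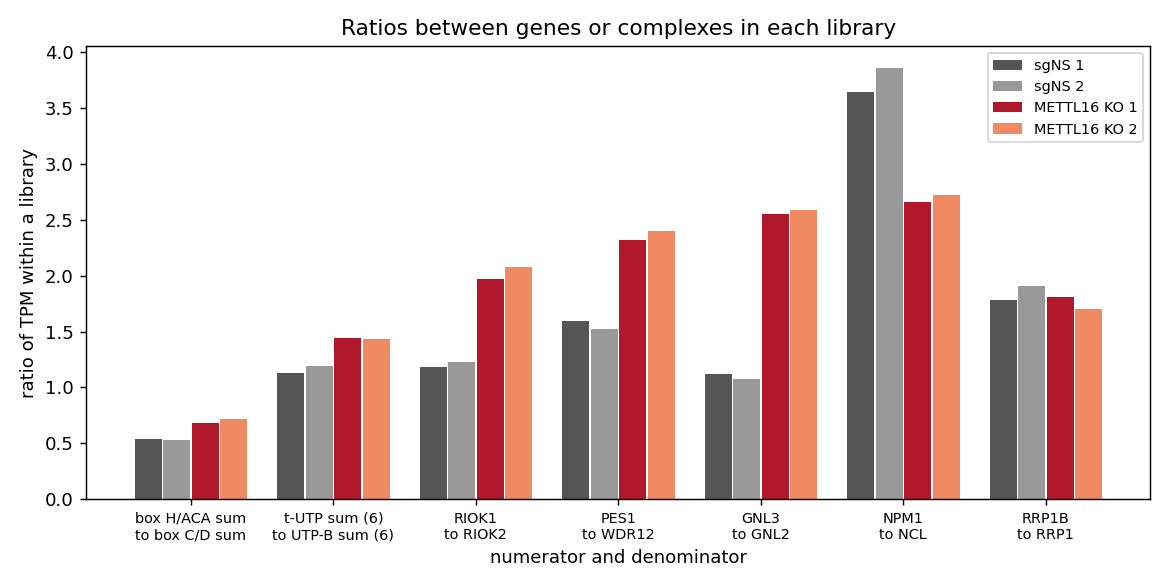
Ratio of TPM within each library (vertical axis, from 0) for 7 pairs of genes or complexes (box C/D with SNU13, t-UTP and UTP-B with 6 subunits each), with grey bars for the 2 sgNS and red and orange bars for the 2 METTL16 KO libraries. The groups do not overlap for 6 pairs, the widest gap being that of GNL3 to GNL2 (1.12 and 1.08 against 2.55 and 2.59), and overlap for RRP1B to RRP1.

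Factors of late 40S maturation had the highest median of the classes, 0.48, and 6 of 8 were called higher on all scales. As deposited 75.0% were called higher and 0 lower, against 50.1% and 25.6% of all genes tested. LTV1, a factor of pre-40S export and assembly, was at 65.8 and 64.2 TPM in the sgNS pair and at 125.9 and 120.4 TPM upon METTL16 KO, which is a log2 fold change of 0.92 (SE 0.042, adjusted p of 1.0e-08 from limma). RIOK1, an atypical kinase of the last cytoplasmic steps, went from 20.2 and 21.4 TPM to 37.6 and 37.9 TPM, with a log2 fold change of 0.85 (SE 0.056). In contrast RIOK2, the related kinase that acts before it, was at 17.1 and 17.5 TPM in the sgNS pair and at 19.1 and 18.2 TPM upon METTL16 KO. Its log2 fold change of 0.11 was not called (95% interval -0.029 to 0.25) and was at -0.055 after median-ratio scaling. The ratio of RIOK1 to RIOK2 was 1.18 and 1.23 in sgNS and 1.97 and 2.08 in METTL16 KO, and RIOK1 was thus the more abundant of the pair in all libraries.

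NOB1 is the endonuclease that cuts the 3′ end of 18S rRNA and PNO1 is its binding partner on the pre-40S particle. PNO1 was at 51.3 and 52.9 TPM in the sgNS pair and at 81.3 and 83.8 TPM upon METTL16 KO, with a log2 fold change of 0.66 (SE 0.044), and NOB1 at 116.6 and 113.8 TPM against 141.6 and 143.2 TPM, with 0.31 (SE 0.037). PNO1 was at 0.440 and 0.465 times NOB1 in sgNS and at 0.574 and 0.585 times in METTL16 KO. RRP12 and BYSL, which act on nuclear pre-40S particles, had log2 fold changes of 0.56 and 0.41. TSR1, a factor that holds the place of translation factors on pre-40S, was at 32.1 and 32.0 TPM against 31.4 and 32.0 TPM, with a 95% interval of its log2 fold change from -0.13 to 0.096. After median-ratio scaling it was called lower at -0.18, so that it followed neither LTV1 nor RIOK1 on any scale.

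Many of the genes share a promoter motif that played no part in their choice. The E-box CACGTG, which MYC and related factors can bind and which reads the same on both strands, was looked for in RefSeq promoters of 300 bases, 250 before the start of the transcript and 50 from it on (GRCh38.p14). It was found in 20 of the 47 promoters of listed genes that the table holds (42.6%), WDR46 included, against 7.43% of all 27305 promoters and 10.3% of the 9331 promoters of genes tested. In 17 of the 20 a CACGTG started within 60 bases of the first transcribed base. The windows of 100 bases below, which begin 70 bases before the first transcribed base (base 71 of each), show it in capitals for the 3 genes with the motif that were called lower (GNL2, NAT10 and FBL), for 3 that were higher on all scales (PNO1, DDX31 and PES1) and for 2 that were not called (RRP9 and UTP20). The windows lie, in the same order, for GNL2 at chr1:37595908-37596007 (minus strand), NAT10 at chr11:34105559-34105658 (plus strand) and FBL at chr19:39846350-39846449 (minus strand). They lie for PNO1 at chr2:68157818-68157917 (plus strand), DDX31 at chr9:132669954-132670053 (minus strand), PES1 at chr22:30591881-30591980 (minus strand), and for RRP9 at chr3:51941875-51941974 (minus strand) and UTP20 at chr12:101280035-101280134 (plus strand).
GNL2: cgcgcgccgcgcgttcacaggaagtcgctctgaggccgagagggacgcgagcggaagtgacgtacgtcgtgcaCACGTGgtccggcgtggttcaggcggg
NAT10: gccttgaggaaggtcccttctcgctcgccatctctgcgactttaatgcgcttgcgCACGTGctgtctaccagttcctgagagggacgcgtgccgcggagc
FBL: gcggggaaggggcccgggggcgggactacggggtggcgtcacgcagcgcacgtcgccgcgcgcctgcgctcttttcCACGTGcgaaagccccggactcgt
PNO1: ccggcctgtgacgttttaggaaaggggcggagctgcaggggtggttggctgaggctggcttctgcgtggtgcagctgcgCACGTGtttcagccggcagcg
DDX31: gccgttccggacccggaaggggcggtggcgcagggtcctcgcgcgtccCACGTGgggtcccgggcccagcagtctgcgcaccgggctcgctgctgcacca
PES1: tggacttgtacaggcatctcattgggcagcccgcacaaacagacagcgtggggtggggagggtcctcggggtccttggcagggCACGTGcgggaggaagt
RRP9: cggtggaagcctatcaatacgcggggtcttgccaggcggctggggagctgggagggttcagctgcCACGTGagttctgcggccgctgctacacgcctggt
UTP20: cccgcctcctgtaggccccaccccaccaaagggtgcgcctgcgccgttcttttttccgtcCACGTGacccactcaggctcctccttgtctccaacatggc

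The motif stood beside changes in both directions. Of the 19 genes with CACGTG and a value, 13 were called higher, 3 lower and 3 not called, with log2 fold changes from -0.73 to 0.92 and a median of 0.41. Of the 27 without it, 18 were higher, 2 lower and 7 not called, with a median of 0.23 and a range of -0.33 to 1.24. Over all genes tested 50.1% were called higher and 25.6% lower. NOP10 and UTP18 hold 2 copies each, and the former rose while the latter was not called. A match of 6 letters is a description and shows no binding.

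Some genes of the list also hold snoRNA genes, whose RNAs become part of snoRNPs. In GENCODE v44, 7 of the 56 genes contained at least 1 annotated snoRNA on the same strand, against 1.68% of the 11330 protein-coding genes tested. These were NOP56, NOP58, DKC1, NCL, WDR43, GNL3 and TSR1. NOP56 holds 5, among them SNORD57 and SNORD86, and GNL3 holds 6. Of the 7, 5 were called higher as deposited, NOP56 was called lower and TSR1 was not called, and their median log2 fold change was 0.15. Of the 48 others with a value 34 were higher and 5 lower, with a median of 0.31. The shares over all genes tested were 50.1% higher and 25.6% lower. The values of these genes are those of the host gene, and the snoRNAs themselves were not analysed here.

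The 55 genes lie on 20 chromosomes, with no more than 7 on any of them (2 and 5). Exons of 19 listed genes overlap those of another protein-coding gene. LTV1 and NOP2, like DDX47, overlap a protein-coding gene on the same strand, so that some reads could belong to either gene. On opposite strands the overlaps include GNL2 with DNALI1, PES1 with TCN2 and DDX31 with GTF3C4. The kit used marks the strand, but whether the authors counted by strand is not given in the sources used here, so that the values of these genes may hold reads of the partner. Pseudogenes are named after 11 of the genes, among them GNL2 and LTV1 with 1 each, PES1 and NHP2 with 2 each and DDX18 with 5, and could share reads with them.

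A wider list of 84 other ribosome biogenesis factors, which does not share genes with the 55, had a similar profile. Of these, 63 (75.0%) were called higher, 8 (9.52%) lower and 13 not called, against 50.1% and 25.6% of all genes tested. The median log2 fold change was 0.29 as deposited and 0.13 and 0.17 on the other scales. On all 3 scales 42 were higher and 8 lower. DHX37, the helicase that UTP14A activates, was at 16.06 and 14.64 TPM in the sgNS pair and at 28.1 and 26.6 TPM upon METTL16 KO, which is a log2 fold change of 0.83. LSG1, a cytoplasmic GTPase of the 60S subunit, and RCL1, a processome factor, had 0.80 and 0.76. At the other end, NLE1 went from 22.9 and 21.4 TPM to 9.08 and 9.80 TPM and EFL1, the GTPase that releases EIF6 from the 60S subunit, from 17.1 and 16.3 TPM to 7.97 and 6.79 TPM, with log2 fold changes of -1.22 and -1.17. NOC2L, which escorts pre-60S particles, had -0.72.

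The machinery of RNA polymerase I, which supplies the pre-rRNA, was also higher. Of 12 genes tested, 11 (91.7%) were called higher and 0 lower in limma, against 50.1% and 25.6% of all genes tested. On all scales 8 were higher, with a median of 0.44 as deposited and 0.28 on both other scales. At an unadjusted p under 0.05 the count of lower genes in limma was also 0, against 26.2% of all genes. A linear model without moderation called 5 higher and 0 lower, against 33.8% and 16.3%. POLR1C was at 22.9 and 23.0 TPM in the sgNS pair and at 50.7 and 49.8 TPM upon METTL16 KO, which is a log2 fold change of 1.13, and POLR1A, the largest subunit, went from 31.4 and 28.9 TPM to 54.5 and 53.5 TPM, with 0.84. POLR1D, which pairs with POLR1C, had 0.54. TAF1B had -0.096 as deposited, not called, and was called lower after both other scalings, while TAF1D had 0.16 as deposited and -0.0061 after median-ratio scaling.

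The assembly factors and the ribosomal proteins that they assemble stood apart. Of 81 cytosolic ribosomal protein genes tested, 66 (81.5%) were called lower and 8 (9.88%) higher as deposited, against 25.6% and 50.1% of all genes tested. Their median log2 fold change was -0.18, against 0.30 for the biogenesis factors. The order of the 2 medians was the same after median-ratio scaling (-0.35 against 0.14) and after quantile normalization (-0.069 against 0.18). However, quantile normalization left 39 of the 81 ribosomal protein genes lower and 27 higher, against 35.5% and 36.9% of all genes tested. On all 3 scales 37 were lower, a share not counted over all genes. For each 1000 TPM of ribosomal protein transcripts, the biogenesis factors without NPM1 held 19.3 and 18.8 TPM in sgNS and 26.2 and 25.8 TPM in METTL16 KO. NPM1, the most abundant member, was called lower, so that leaving it out widens this difference. With NPM1 the members summed to 5309 and 5281 TPM in sgNS and to 5592 and 5531 TPM in METTL16 KO. The ribosomal protein transcripts summed to 177960 and 180250 TPM against 155830 and 156160 TPM. Ribosomal protein genes have many processed pseudogenes, with which reads may be shared, and their list was made by symbol after values had been seen.

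**Figure D4:**
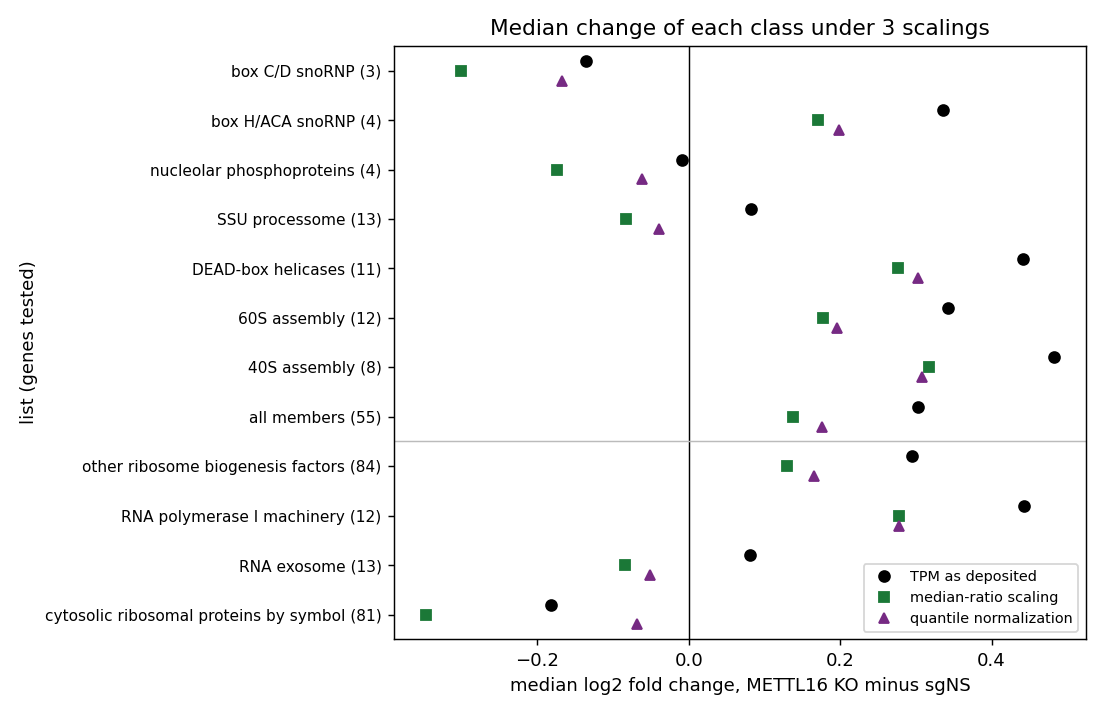
Median log2 fold change (METTL16 KO minus sgNS, horizontal axis) of each class and of other lists (vertical axis, with the number of genes tested), as deposited (circles), after median-ratio scaling (squares) and after quantile normalization (triangles). The medians of box H/ACA proteins, helicases, 60S and 40S factors stayed above 0 on all 3 scales, that of the SSU processome went from 0.082 to -0.084 and -0.039, and those of box C/D, nucleolar phosphoproteins and ribosomal proteins stayed below 0.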

How the data were processed

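RNA-seq of 4 Huh7 libraries (2 sgNS, 2 METTL16 KO) was deposited as 1 table of 18806 genes. According to the methods and the labels, the authors prepared libraries with a KAPA Stranded mRNA-Seq kit (a label also reads Ribozero RNA), trimmed reads with Cutadapt, used STAR for alignment to GRCh38 and RSEM for gene quantification; versions, annotation and the strand setting are not given in the sources used here. The authors call the deposited unit RPKM, but the sum of each column is 1000000 and they were handled here as TPM, which keep no depth. Groups were taken from the labels.

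Expression was tested with limma 3.58.1 (R 4.3.3; eBayes with a mean-variance trend) on log2(TPM + 0.1) over 11971 genes that had a mean of 1 TPM or more, two-sided, with Benjamini-Hochberg adjustment over all of them and calls at an adjusted p under 0.05. Intervals are the 95% intervals of limma. This script was tested on simulated data. The median-ratio scaling and the quantile normalization used the same model. Other alternatives were pseudocounts of 0.01 and 1, filters at a mean of 5 TPM or at any value above 0, eBayes without trend, a linear model without moderation, a replicate block and leaving out each library.

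The 56 members, their role classes, the 85 other ribosome biogenesis factors, 14 genes of the RNA polymerase I machinery, 14 of the RNA exosome and the cell type markers were chosen with earlier results of these data known. Genes named were METTL16, the members that the study examines as proteins, the lowest and highest of each class, the 5 lowest and 5 highest of all, members whose direction moved with scaling, the cores of the complexes, and the 3 lowest and 3 highest of each other list. Other members, and SNU13, PWP2, TBL3, UTP4 and NOL11 as partners in their complexes, were chosen after values were seen. EMG1, RRN3, UBTF and EXOSC7 of the other lists were not analysed here. Gene positions, exon overlaps, pseudogenes and snoRNAs are from GENCODE v44 (GRCh38), and promoters, matched by symbol for 47 of the 56 members, from RefSeq (GRCh38.p14).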

Additional observations from a re-analysis of the deposited data

How the results depend on the processing

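With 2 libraries a group and an unknown depth, small changes rest on few values. Scaling moved the counts of lower and of higher calls, and leaving out moderation mainly those of higher calls. The 6 members called lower became 13 after median-ratio scaling and 13 after quantile normalization, and the member median of 0.30 became 0.14 and 0.18. The 39 members called higher became 28 and 29. Among the other ribosome biogenesis factors 8 called lower became 15 and 16, and in the RNA polymerase I machinery 0 became 1 and 1. Their higher calls went from 63 to 43 and 43, and from 11 to 8 and 8. The calls over all genes tested moved the same way. As deposited 25.6% of them were lower, and 36.5% and 35.5% on the other scales. The shares called higher were 50.1%, 36.4% and 36.9%. These scalings set the median of all genes near 0 by construction. After median-ratio scaling NOP58 (-0.027), NHP2 (-0.026), NCL (-0.013), UTP6 (-0.084), WDR36 (-0.12) and RIOK2 (-0.055) changed sign, and after quantile normalization UTP6 (-0.039), WDR36 (-0.13) and RIOK2 (-0.089) did. Without moderation, where each gene has its own spread from 4 libraries, 25 members were higher in place of 39. So were 39 other factors in place of 63 and 5 polymerase genes in place of 11. Over all genes tested 33.8% were higher in place of 50.1%. Leaving out 1 library at a time gave 35 to 39 members higher, 4 to 6 lower and a median of 0.27 to 0.30, and METTL16 between -0.54 and -0.45. RRP9 ranged from -0.11 without the second sgNS library to 0.071 without the first, with 0.035 without the second KO library, and the cause was not tested. The replicate block gave 39 members higher and 6 lower and changed no member's call, with METTL16 at -0.50. Same-numbered libraries did not deviate together (r = -0.044 across genes), but with 2 libraries a group this cannot exclude a pairing. Pseudocounts of 0.01 and 1 and the filter at 5 TPM changed no member's call, the filter at any value above 0 lost 1 call and eBayes without trend lost 3.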

Other observations

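The RNA exosome, the complex of exonucleases that trims the 3′ ends of pre-rRNA, had no common direction. Of 13 genes tested 5 (38.5%) were called higher and 3 (23.1%) lower in limma, against 50.1% and 25.6% of all genes tested. Their log2 fold changes had a median of 0.081 as deposited and of -0.085 and -0.051 after median-ratio scaling and quantile normalization. EXOSC2, EXOSC8 and EXOSC9, with log2 fold changes of -0.63, -0.33 and -0.23, were the lowest, and EXOSC1, DIS3 and MPHOSPH6, with 0.64, 0.51 and 0.33, the highest. EXOSC1 is a cap subunit of the complex and DIS3 one of its catalytic subunits.

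A further promoter motif, AAGATGGCG, looked for on both strands, was found among the 47 promoters of listed genes in those of DDX47 and NIP7 (4.26%, against 1.85% of all promoters and 4.10% of those of genes tested).

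Among 11 members with named pseudogenes 7 were called higher and 4 lower, against 50.1% and 25.6% of all genes tested. The median of their log2 fold changes was 0.15. The summed TPM of all 55 members was 5309 and 5281 in sgNS and 5592 and 5531 in METTL16 KO.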
